A study of Mus musculus with 192 samples.

Results

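The difference between Nrf2-KO and wild-type thymus in mice that stayed on the ground was measured in 12 of the 192 RNA-sequence libraries of the study. Of these, 6 came from Nrf2-KO mice (GC_KO) and 6 from wild-type mice (GC_WT). The libraries were taken by their labels as thymus, ground control, and 1 of both genotypes. The study compared WT and Nrf2-KO mice that were flown to space or kept on Earth, and RNA was prepared from 9 tissues. All 12 ground mice were males, labelled C57BL/6 (C57BL/6J in the methods of the study). They carried an age of 12 weeks in the labels and lived singly in cages built for space flight. The methods give 12 weeks as the age of mice ready for transport, and tissues were taken after the stay in these cages. The GC_KO mice carried the Nfe2l2tm1Ymk allele in the germ line, so every cell type lacked Nrf2, and animals without a shunt of the liver vessels had been chosen for the experiment. For this choice Nrf2-KO mice had been given ketamine and xylazine some weeks earlier, a step that the methods describe for Nrf2-KO mice. The methods do not say whether WT and Nrf2-KO mice were littermates. Loss of Nrf2 and other differences between the groups, inherited or from handling, cannot be told apart. Neither ground group was flown. Thymus RNA was depleted of ribosomal RNA, whereas the other tissues were sequenced from poly(A) RNA.

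Nrf2, the product of Nfe2l2, is a transcription factor that is held low by Keap1 and the Cul3 ubiquitin ligase in resting cells. When electrophiles or oxidants modify Keap1, Nrf2 accumulates, pairs with a small Maf protein and binds antioxidant response elements near genes for glutathione metabolism, detoxification, NADPH supply and iron handling. The thymus is the organ in which T cells develop, mostly as CD4 and CD8 double positive thymocytes in a cortex of specialised epithelium, before they mature in the medulla beside dendritic cells and macrophages.

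The labels as thymus were borne out by these markers. Cd8a stood at 375 ± 30.8 TPM (a transcript level scaled to transcript length and to the library total; mean ± SD, n = 6) in GC_WT, and Prss16, a protease of cortical epithelium, at 319 ± 34.1 TPM. The 12 libraries held 8.01 to 10.6 M expected counts (reads as assigned to genes by RSEM, including shares of reads that fit several genes), 9.43 to 10.6 M in GC_WT and 8.01 to 9.76 M in GC_KO. No pair of libraries within a group was identical. On the first principal component of 15109 genes, which held 23.8% of the variance, all 6 GC_KO libraries lay above 0 and all 6 GC_WT libraries below it. GC_KO mouse 4 stood apart at 36.5, against 6.11 to 14.9 for the other GC_KO mice, and was also the shallowest library. Genes of the mitochondrial genome took 1.69 to 2.28% of the counts in GC_KO and 1.12 to 1.54% in GC_WT, without overlap. Mitochondrial ribosomal RNAs alone took 0.81 to 1.27% in GC_KO and 0.45 to 0.70% in GC_WT. The part of the rRNA depletion in these shares was not tested. Protein-coding genes took 72.5 to 79.3% and 77.9 to 80.5% of the counts, respectively. Small structural RNAs (misc_RNA) took 11.03 to 15.7% in GC_KO and 10.7 to 13.4% in GC_WT.

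**Figure D1:**
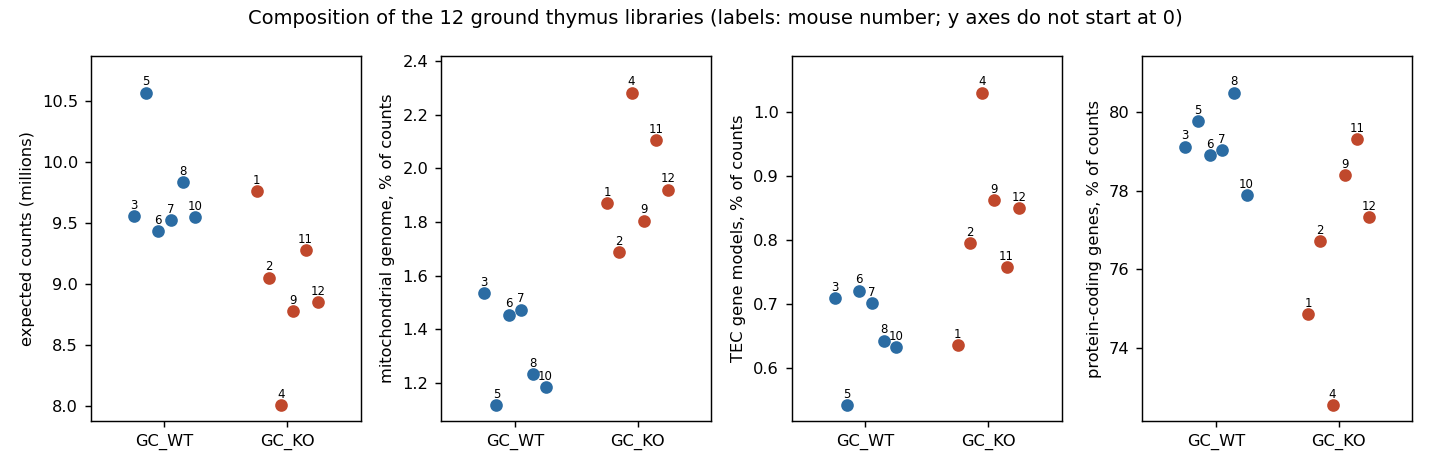
Depth and composition of the 12 ground thymus libraries. Each point is 1 mouse, labelled by its number, and the y axes give the total of expected counts in M or the percentage of counts in a class of genes. GC_KO mouse 4 has the lowest depth (8.01 M) and the highest mitochondrial share (2.28%), and the mitochondrial shares of the groups do not overlap.

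Nfe2l2 itself was measured first. The gene lies on the minus strand of chromosome 2 (75675513 to 75704641, GRCm38). Its level was 24.2, 23.0, 20.9, 24.7, 25.01 and 21.5 TPM in GC_WT mice 3, 5, 6, 7, 8 and 10. It was 7.55, 7.61, 9.37, 11.1, 11.2 and 9.93 TPM in GC_KO mice 1, 2, 4, 9, 11 and 12. Every GC_KO mouse was thus below every GC_WT mouse, and no library went against its label. The group mean in GC_KO was 40.8% of that in GC_WT, with a log2 fold change of -1.20 ± 0.07 (SE) and an adjusted p of 2.2e-12 in edgeR's quasi-likelihood test. The Ymk allele replaces the part that codes for the DNA-binding region with a lacZ reporter, so transcripts of the remaining exons can still be counted. In flown mice the same contrast gave -1.10 ± 0.07. In the other 8 tissues of the ground mice Nfe2l2 was lower in GC_KO by -1.13 (kidney) to -1.81 (cerebrum), except in spleen, where it was -0.25 (adjusted p = 0.00039).

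Of the 16307 genes tested in thymus, 436 were higher and 185 lower in GC_KO than in GC_WT at an adjusted p under 0.05 (621 genes, 3.81% of those tested, 2.67% higher and 1.13% lower). A further measure of the same groups, no overlap of TPM between the 6 and 6 mice, held for 209 genes or 1.28%. An unadjusted p under 0.05 in edgeR was met by 3073 of the 16307 genes, to be kept beside such counts in the lists below. Most changes were small. The median size of the log2 fold change was 0.39 among higher genes and 0.42 among lower genes, and 32 and 37 genes, respectively, reached a size of 1. The direction of the calls differed between methods. With limma on log2(TPM + 1), which also tested fewer genes (10158), 40 genes were higher and 92 lower (0.394% and 0.906% of those tested), so that 30.3% of calls were higher against 70.2% in the count test, and the median of all genes stood at -0.11 instead of -0.01. Values on the TPM scale are to be read relative to this shift. The number of calls also leaned on 3 mice. Without GC_KO mouse 4 there were 197 higher and 106 lower genes, without GC_WT mouse 5 there were 193 and 85, and without GC_WT mouse 8 there were 176 and 140.

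Among genes that control Nrf2, Btrc was called beside Nfe2l2. Of 15 tested members of the Nrf2 system, Nfe2l2 and Btrc were lower and no member was higher. Their log2 fold changes had a median of -0.05, and those of all genes one of -0.01. Btrc, the substrate receptor of a ubiquitin ligase that marks Nrf2 for breakdown, was 9.02 to 11.1 TPM in GC_WT and 5.17 to 8.63 TPM in GC_KO. Its groups did not overlap, and the log2 fold change was -0.54 ± 0.06 (adjusted p = 4.4e-06). Btrc lies on chromosome 19 in a stretch with many called genes, described further on. Keap1, the repressor of Nrf2, had values of 20.8 to 24.2 TPM in GC_WT and 15.6 to 24.4 TPM in GC_KO. The difference of -0.08 ± 0.05 did not pass the test (adjusted p = 0.39).

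Nqo1 and Hmox1, an NADPH-dependent quinone reductase and the enzyme that opens haem, are often read as markers of Nrf2 activity. Nqo1 was 12.9, 15.2, 11.7, 10.5, 12.8 and 14.8 TPM in GC_WT mice 3, 5, 6, 7, 8 and 10. It was 11.01, 11.6, 6.37, 12.5, 13.5 and 11.2 TPM in GC_KO mice 1, 2, 4, 9, 11 and 12. The groups overlapped, and GC_KO mouse 4 alone fell below the lowest GC_WT mouse. Hmox1 ranged from 4.10 to 5.65 TPM in GC_WT and from 2.85 to 5.44 TPM in GC_KO. The mean log2 TPM differed by -0.26 for Nqo1 (exact two-sided permutation test, p = 0.16, n = 6 and 6) and by -0.15 for Hmox1 (p = 0.45 by the same exact permutation test). With Benjamini-Hochberg adjustment over all genes, edgeR gave -0.14 ± 0.11 for Nqo1 (adjusted p = 0.54) and -0.04 ± 0.14 for Hmox1 (adjusted p = 0.92).

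Over 6 lists of genes known as Nrf2 targets, 73 of 87 members passed the filter on low counts. The lists were chosen with earlier results of these data known, so their shares are a description and not a test. Lower expression in GC_KO was called for 7 of the 73 (9.59%, against 1.13% of all genes), and no member was called higher. The count was 3 of 68 with the 12 ground libraries alone and 4 without GC_KO mouse 4, GC_WT mouse 3 or GC_WT mouse 5. Of the 73, 50 had a log2 fold change below 0 (68.5%, against 51.5% of all genes), and the median was -0.08. In flown mice 7 of the 73 were lower in FL_KO than in FL_WT (1.34% of all genes).

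Glutathione transferases, which join glutathione to electrophiles, held 3 of these 7 genes. Gsta3 was 2.78, 2.49, 2.43, 2.55, 5.07 and 3.36 TPM in GC_WT mice 3, 5, 6, 7, 8 and 10. In GC_KO mice 1, 2, 4, 9, 11 and 12 it was 0.93, 1.21, 0.62, 0.67, 1.18 and 1.08 TPM. All GC_KO mice were below all GC_WT mice (log2 fold change -1.54 ± 0.24, adjusted p = 0.00034). Gstm1 was 7.5 to 9.57 TPM in 5 GC_WT mice and 18.4 TPM in GC_WT mouse 8. It was 3.25 to 6.61 TPM in GC_KO, again without overlap (-0.90 ± 0.20, adjusted p = 0.0097). Gsto1, an omega class member, fell from a range of 8.27 to 13.3 TPM to a range of 4.76 to 7.57 TPM (-0.48 ± 0.13, adjusted p = 0.034). The other 14 tested transferases were not called, and the median of the list was -0.10. Gsta3 and Gsto1 lie in stretches with many called genes, described further on. On chromosome 19, 14 of 44 tested genes were called. On chromosome 1, 5 of 23 were called, with Gsta3 the 1 lower gene and 4 higher. The higher ones include Gm10222, a pseudogene with mitochondrial sequence. The part of position in these calls was not tested. Gsta and Gstm genes belong to families of similar sequence, so reads may have been divided among their members.

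The other called target genes moved less. Aldh7a1, an aldehyde dehydrogenase that also degrades lysine, was 16.9 to 22.4 TPM in GC_WT and 11.9 to 17.4 TPM in GC_KO (-0.37 ± 0.06, adjusted p = 0.00073). Ftl1, the light chain of the iron store ferritin, was 464 to 752 TPM in GC_WT and 332 to 457 TPM in GC_KO, without overlap (-0.36 ± 0.08, adjusted p = 0.011). It lies at 45 to 50 Mb of chromosome 7, where 9 of 75 tested genes were called (12%). Rpe, an epimerase of the pentose phosphate pathway, was 17.6 to 22.8 TPM and 12.2 to 16.8 TPM (-0.27 ± 0.07, adjusted p = 0.028). Akr1b3, an aldose reductase, gave -0.22 ± 0.06 (adjusted p = 0.042), and this call was lost in 13 of 20 alternative settings. The calls of Gsto1 and Rpe were lost in 6 and 5 of them, and that of Ftl1 in 1. In glutathione synthesis and the thioredoxin system, none of 15 tested members was called by edgeR. An unadjusted p under 0.05 was found for 6 of them, beside 3073 of 16307 genes in all. The member with the smallest p was Gpx4, a peroxidase of lipid hydroperoxides, at -0.19 ± 0.07 (adjusted p = 0.094). In conjugation and efflux, none of 8 tested members was called and 1 had an unadjusted p under 0.05, namely the transporter gene Abcc5 (0.19 ± 0.09, adjusted p = 0.25).

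**Figure D2:**
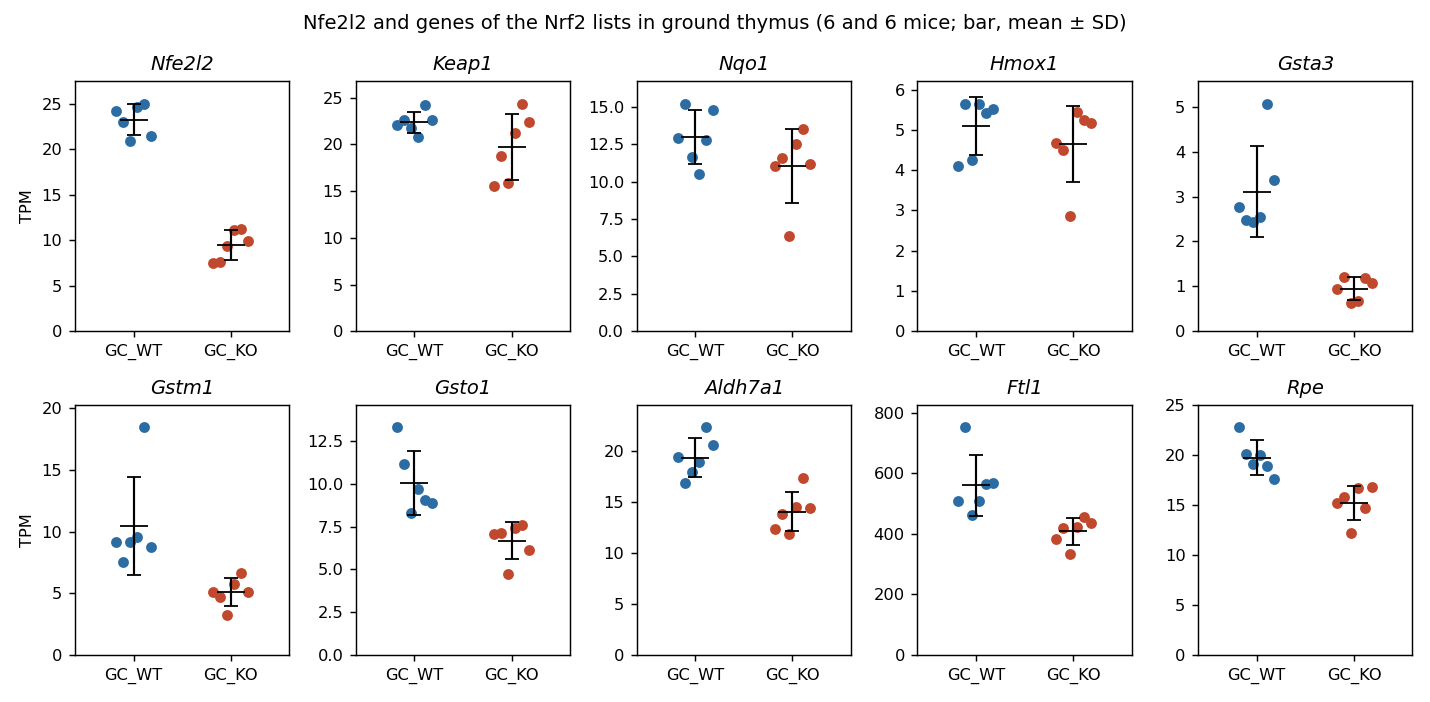
Levels of Nfe2l2, Keap1 and 8 genes of the Nrf2 target lists in ground thymus. Each point is the TPM of 1 mouse, 6 per group, and bars give mean ± SD. Nfe2l2, Gsta3, Gstm1, Gsto1, Ftl1 and Rpe separate the groups, whereas Keap1, Nqo1 and Hmox1 overlap.

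Promoters were searched for the core letters of an antioxidant response element, TGACNNNGC, on both strands, in RefSeq promoter sequences of GRCm38.p6 (250 bases before to 50 after the start of a gene). The letters include TGACTCA, the core of an AP-1 site, where the middle bases are TCA. They were found in 12.5% of 27025 promoters and in 14.7% of the 10904 promoters of genes tested in thymus. A promoter sequence was at hand for 140 of the 185 lower genes and 219 of the 436 higher genes, of which 20% and 13.2% held a match. Of the 60 tested target genes with a promoter, 10 (16.7%) held one. Gsta3 was the called one among them. Its match is printed first, for comparison with matches of 4 target genes whose difference was not called. Each is written 5′ to 3′ on the strand that carries the letters, which are in capitals.
Gsta3, chr1:21240454-21240482, plus strand: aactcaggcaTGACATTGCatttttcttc
Mgst1, chr6:138140461-138140489, minus strand: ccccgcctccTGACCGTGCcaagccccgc
Prdx1, chr4:116685456-116685484, minus strand: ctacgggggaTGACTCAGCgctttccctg
Me1, chr9:86695902-86695930, minus strand: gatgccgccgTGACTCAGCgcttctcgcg
Gclm, chr3:122245413-122245441, minus strand: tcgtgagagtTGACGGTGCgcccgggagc
The fold changes beside these sequences differed widely. Gsta3, with its match 121 bases before the start, gave -1.54. Mgst1, a membrane-bound glutathione transferase, gave -0.49 (adjusted p = 0.18), and Prdx1, a peroxiredoxin, gave -0.20 (adjusted p = 0.19). Me1, the cytosolic malic enzyme that supplies NADPH, and Gclm, the modifier subunit of the enzyme that starts glutathione synthesis, gave 0.16 and 0.09, with adjusted p of 0.51 and 0.58. Prdx1 and Me1 share the same 9 letters.

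The strongest differences lay outside the target lists. Capza1, a subunit of the protein that caps actin filaments, was 83.6 to 110 TPM in GC_WT and 31.4 to 47.0 TPM in GC_KO (-1.12 ± 0.05, adjusted p = 1.2e-13). Cdc42bpg, a kinase that binds Cdc42, fell from 6.98 to 8.82 TPM to 2.52 to 3.81 TPM (-1.32 ± 0.07, adjusted p = 8.6e-13). Wnt8b, a Wnt ligand known from the developing forebrain, was 2.41 to 4.15 TPM in GC_WT and 0.03 to 0.07 TPM in GC_KO. In these genes the groups were far apart, and all 12 mice lay on the side of their genotype. Tmem267, a membrane protein gene, gave -1.35 ± 0.17, and Ldlrad3, which codes for a receptor of the low density lipoprotein receptor type, gave -1.09 ± 0.10.

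Among models without a coding sequence the contrast came close to presence and absence. The transcript model 6820402A03Rik held 1160 counts over the 6 GC_WT libraries and 1 count over the 6 GC_KO libraries. Scaled by depth, its level in GC_KO was 0.094% of that in GC_WT (exact 95% interval 0.0024 to 0.52%, counting error only). The pseudogene Gm3608 went the other way, with 1.09 to 2.20 TPM in GC_WT and 37.6 to 55.8 TPM in GC_KO (4.76 ± 0.09, adjusted p = 3.0e-23). Gm27177, an antisense model, was 0 to 0.09 TPM in GC_WT and 9.31 to 14.03 TPM in GC_KO. Gm7868 had 2 counts in GC_WT and 203 in GC_KO, with a level in GC_WT of 0.91% of that in GC_KO (exact 95% interval 0.11 to 3.3%).

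Several of these genes have near copies. Gm27177 overlaps Entpd4b, on the other strand, near Entpd4 on chromosome 14. Entpd4b (0.88 ± 0.06) and Entpd4 (0.79 ± 0.07), which code for nucleotide phosphatases of the secretory pathway, were both higher, and Gm37094 and Gm20236 in the same region had identical values in every library (2.6 ± 0.19). Gm2564 (-1.75 ± 0.21) and Gm13304 (-1.55 ± 0.24) lie in a repeated stretch of chromosome 4. Srp54c (-1.01 ± 0.22) and Plac9b (-1.89 ± 0.33) are also members of copied families. The split of reads among such copies is uncertain, and these values are given as they were deposited. The same holds for Nnt, the mitochondrial transhydrogenase that makes NADPH. It has a pair of overlapping models, of which 1 rose from 6.06 to 10.4 TPM to 15.1 to 23.9 TPM (1.15 ± 0.11, adjusted p = 2.1e-07). The other, at 5.54 TPM in GC_WT and 5.60 TPM in GC_KO on average, gave 0.13 ± 0.22 (adjusted p = 0.81). The model that rose was also called higher in 4 of the 8 other tissues, namely liver (0.83), spleen (0.66), temporal bone (1.05) and white adipose tissue (0.97).

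Some of these differences were seen throughout the body and others were not called elsewhere. Capza1, Cdc42bpg, Tmem267, Gm3608, Gm27177, Gm7868, Entpd4 and Entpd4b were called in the same direction in all 8 other tissues of the ground mice. Of all genes tested there, 2.14% were called in brown adipose tissue, 2.74% in white adipose tissue, 2.64% in liver, 1.61% in kidney, 1.13% in spleen, 0.836% in cerebrum, 0.244% in mandibular bone and 0.198% in temporal bone. Capza1 gave -1.07 to -1.34 there and Gm3608 gave at least 4.10. Ldlrad3, in contrast, was called lower in none of the 8 and higher in 1. Wnt8b was tested in 2 other tissues and called in neither, with 0.56 in cerebrum and -2.27 in mandibular bone. The thymus differs from those tissues both as an organ and in its rRNA-depleted libraries, and the effects of both cannot be told apart.

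Some genes beside Nfe2l2 were called as well. Without counting Nfe2l2 itself, 3 of 14 tested genes within 1 Mb of its start were called (21.4%), 5 of 53 within 5 Mb (9.43%) and 16 of 313 within 40 Mb (5.11%), beside 3.81% of all genes. E030042O20Rik, a non-coding transcript that starts next to Nfe2l2 on the other strand (75704770 to 75710024), was 0.58 to 0.89 TPM in GC_WT and 0.12 to 0.30 TPM in GC_KO (-1.62 ± 0.32, adjusted p = 0.0047). Agps, which makes the ether bond of plasmalogens, was 22.7 to 24.5 TPM in GC_WT and 23.9 to 35.5 TPM in GC_KO. Its groups touched, with 4 GC_KO mice above the highest GC_WT mouse, and its log2 fold change was 0.38 ± 0.04 (adjusted p = 1.2e-07). Pde11a, a phosphodiesterase of cyclic nucleotides, was low in both groups, at 0.07 to 0.27 TPM and 0.53 to 1.03 TPM (2.12 ± 0.24, adjusted p = 3.1e-06). Sestd1, a phospholipid-binding protein gene, gave 0.38 ± 0.07 (adjusted p = 0.0018), and Itga4, the alpha 4 integrin, gave 0.17 ± 0.05 (adjusted p = 0.046). The calls of Itga4, Sestd1 and Agps were lost in 15, 2 and 2 of 20 alternative settings.

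**Figure D3:**
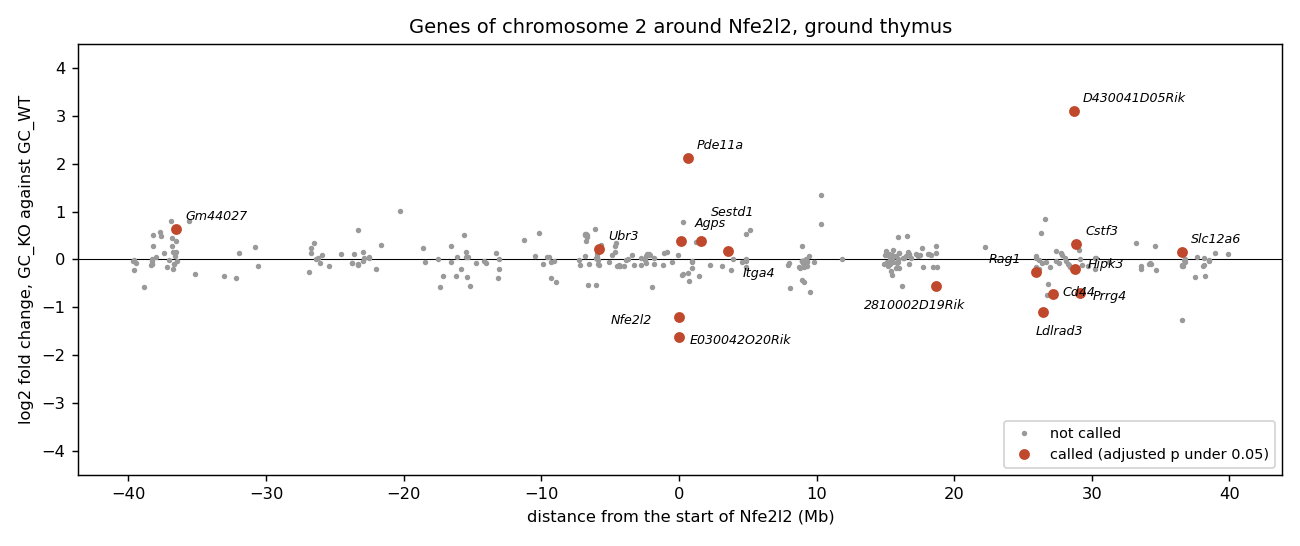
Log2 fold change of GC_KO against GC_WT for tested genes of chromosome 2 up to 40 Mb from the start of Nfe2l2. The x axis is the distance from that start in Mb and red points are called genes. Of 14 other genes within 1 Mb of Nfe2l2, 3 were called, and the highest point is D430041D05Rik at 3.11.

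Called genes were also crowded in other places, which were looked for after the values had been seen. The genome was divided into windows of 5 Mb, of which 317 held at least 20 tested genes. In 9 of these at least 20% of the genes were called, and in 96 no gene was called at all (the median was 3.13%). The 9 windows held 69 of the 621 called genes and 262 of the tested genes. At 45 to 50 Mb of chromosome 19, 14 of 44 genes were called, among them Btrc, Gsto1, Sfxn2 (-1.13 ± 0.09), a mitochondrial carrier, and Arl3 (-0.90 ± 0.08), a small GTPase of cilia. Wnt8b lies just before this window. On chromosome 14, 12 of 43 genes were called at 65 to 70 Mb, including the Entpd4 copies. On chromosome 7, 7 of 25 were called at 65 to 70 Mb, with the transcription factor gene Mef2a lower by -0.41 ± 0.05. The window around Nfe2l2 held 6 of 22, Nfe2l2 included. At 100 to 105 Mb of chromosome 2, 7 of 33 were called, among them Rag1, Cd44, Ldlrad3 and D430041D05Rik. At 20 to 25 Mb of chromosome 1, 5 of 23 were called, namely Gsta3 as the 1 lower gene and 4 higher models, Gm10222 among them. In the flown mice the called genes of these 9 windows had the same sign as on the ground, except for 1 gene of the chromosome 7 window. The part of inherited differences other than Nrf2 loss in these windows was not tested.

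Transcripts of the mitochondrial genome were higher in GC_KO. Of 14 tested genes, 9 were called higher and none lower, with a median of 0.61 against -0.01 over all genes. mt-Co2 is listed at 0 in all 12 libraries. mt-Nd1, a subunit of complex I, was 545, 394, 571, 496, 507 and 399 TPM in GC_WT mice 3, 5, 6, 7, 8 and 10. It was 598, 589, 718, 746, 710 and 693 TPM in GC_KO mice 1, 2, 4, 9, 11 and 12, all above the highest GC_WT mouse (0.59 ± 0.09, adjusted p = 0.00023). mt-Cytb (0.60 ± 0.10), mt-Nd2 (0.74 ± 0.13) and mt-Atp8 (0.59 ± 0.11), of complexes III, I and V, were higher too, with 1 GC_KO mouse inside the GC_WT range for mt-Atp8. The ribosomal RNA mt-Rnr1 stood at 457 to 785 TPM in GC_WT and 975 to 1909 TPM in GC_KO (1.14 ± 0.27, adjusted p = 0.017). The part of the rRNA depletion in this value was not tested. Gm10222, a nuclear pseudogene on chromosome 1 with mitochondrial sequence, rose as well (1.19 ± 0.22). On the TPM scale 6 of the 14 were called higher, and without GC_KO mouse 4 or GC_WT mouse 5 there were 7. The nuclear genes of oxidative phosphorylation did not follow. None of 42 tested gene models was called by edgeR, and the median was -0.07. An unadjusted p under 0.05 was found for 6 of them, beside 3073 of 16307 genes in all. In the other 8 tissues, sequenced from poly(A) RNA, mt-Nd1 had log2 fold changes of -0.03 to 0.24 and was called in none of them.

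A further class of higher genes consisted of models annotated as TEC, single transcripts that still await experimental support and often lie within introns. Of 870 tested TEC models 98 were called higher and 3 lower, and their median log2 fold change was 0.35. Among 130 sense intronic models 9 were higher and none lower (median 0.31). Of 13448 protein-coding genes 277 were higher and 170 lower (median -0.02). TEC models took 0.64 to 1.03% of the counts in GC_KO and 0.54 to 0.72% in GC_WT, and GC_KO mouse 4 had the highest share. Without GC_KO mouse 4, GC_WT mouse 5 or GC_WT mouse 8, 39, 37 and 43 TEC models were called higher, respectively. GC_KO mouse 4 was also highest in the mitochondrial share and on the first principal component, but the measures did not run in parallel over all mice. GC_KO mouse 1 had the lowest TEC share of its group (0.64%), with a mitochondrial share of 1.87%, above every GC_WT mouse. GC_KO mouse 11 had the lowest first component of its group (6.11), with a mitochondrial share of 2.11%. The part of library composition in the calls was not tested.

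Cytosolic ribosomal protein genes, which are short and highly expressed, had small values of 1 sign. Of 63 tested members 61 had a log2 fold change below 0 (51.5% of all genes), and the median was -0.11. An unadjusted p under 0.05 was found for 22 of the 63, beside 3073 of 16307 genes in all. A single one was called. Rpl13a, a protein of the large subunit, was 685 to 759 TPM in GC_WT and 431 to 554 TPM in GC_KO (-0.40 ± 0.05, adjusted p = 5.5e-06). It was also called lower in 2 of the other 8 tissues.

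Thymocyte genes differed in few places. Bulk RNA was measured, so fewer cells of a type and less RNA per cell cannot be told apart. Of 19 tested genes of double positive thymocytes, Plxnd1 was higher and Rag1 lower, with a list median of 0.01 (-0.09 on the TPM scale). Rag1, which cuts DNA at antigen receptor genes, was 771 to 922 TPM in GC_WT and 481 to 793 TPM in GC_KO, and 5 of 6 GC_KO mice were below the lowest GC_WT mouse (-0.27 ± 0.06, adjusted p = 0.012). Its partner Rag2, in contrast, gave -0.15 (adjusted p = 0.31). Cd4 (-0.02) and Cd8a (0.03) were not called, with adjusted p of 0.92 and 0.89. Among 16 tested genes of the T cell receptor and co-receptors, Cd3e, a signalling chain, was higher (0.22 ± 0.06, adjusted p = 0.043) and no gene lower. That call and the call of Plxnd1 (0.24 ± 0.07, adjusted p = 0.035) were each lost in 12 of 20 alternative settings. Of 17 early thymocyte genes, Cd44, an adhesion receptor for hyaluronan, was lower. It was 11.5, 10.6, 9.37, 11.1, 12.0 and 9.93 TPM in GC_WT mice 3, 5, 6, 7, 8 and 10, and 3.89, 5.22, 5.05, 6.74, 7.28 and 8.52 TPM in GC_KO mice 1, 2, 4, 9, 11 and 12. The groups did not overlap (-0.72 ± 0.10, adjusted p = 3.8e-05). Rag1 and Cd44 both lie at 100 to 105 Mb of chromosome 2, where 7 of 33 tested genes were called. The part of position in these calls was not tested. Positive selection genes (16 tested, smallest p for Tox) and regulatory T cell genes (11 tested, smallest p for Il2rb) had no call by edgeR, with 4 and 2 members at an unadjusted p under 0.05.

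Genes of mature thymocytes and of innate lymphocytes were on the lower side. Of 18 tested mature thymocyte genes 16 had a log2 fold change below 0 (51.5% of all genes), the median was -0.22, and 3 were called lower (1.13% of all genes). These were Gimap4, a GTPase of lymphocyte survival (-0.43 ± 0.11, adjusted p = 0.025), Itgb7, a homing integrin (-0.31 ± 0.09, adjusted p = 0.042), and H2-Q7, a class Ib MHC gene with close copies (-0.53 ± 0.15, adjusted p = 0.049). Of 11 tested genes of innate lymphoid and NK T cells 10 were below 0 (median -0.45), and 2 were called lower (1.13% of all genes). Ccl5, a chemokine of cytotoxic cells, was 12.0 to 23.6 TPM in GC_WT and 7.45 to 12.3 TPM in GC_KO, with 5 of 6 GC_KO mice below the lowest GC_WT mouse (-0.79 ± 0.16, adjusted p = 0.0052). Gzmb, a granule protease, was 1.03 to 3.45 TPM and 0.46 to 1.18 TPM (-1.28 ± 0.27, adjusted p = 0.0081). The calls of Ccl5 and Gzmb held in all alternative settings that tested them (20 and 18). The count of mature thymocyte genes did not hold, with none called when GC_KO mouse 1, 2 or 9 or GC_WT mouse 5 was left out, and none when the fit held the 12 ground libraries alone (2.22% of all genes called).

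Genes of antigen presentation had small differences of 1 direction. All 11 tested genes of MHC class II presentation had a log2 fold change below 0 (51.5% of all genes), with a median of -0.25. Of these, 3 were called lower (1.13% of all genes). Signs of 1 direction were not particular to this list. The proteasome list, without a call, had 35 of 37 genes below 0, and the endothelium list had 10 of 12 above 0. H2-Aa, an alpha chain, was 228, 307, 192, 218, 247 and 255 TPM in GC_WT mice 3, 5, 6, 7, 8 and 10. It was 164, 193, 150, 187, 211 and 195 TPM in GC_KO mice 1, 2, 4, 9, 11 and 12. The groups overlapped, with 3 GC_KO mice below the lowest GC_WT mouse and 3 within the GC_WT range (-0.30 ± 0.08, adjusted p = 0.033). H2-Eb1 (-0.29 ± 0.08, adjusted p = 0.034) and H2-Ab1 (-0.26 ± 0.07, adjusted p = 0.049) code for beta chains. No gene of this list was called when GC_KO mouse 4 or 9 or GC_WT mouse 5 or 10 was left out, or on the TPM scale.

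Dendritic cell markers were on the lower side too. Of 15 tested, 14 were below 0 (51.5% of all genes), with a median of -0.27, and 2 were called lower (1.13% of all genes). These were Itgax, the CD11c integrin (-0.47 ± 0.12, adjusted p = 0.027), and Bst2, an interferon-induced surface protein (-0.30 ± 0.08, adjusted p = 0.025). The summed level of the list was 320 to 375 TPM in GC_WT and 237 to 316 TPM in GC_KO. Itgax and Bst2 had means of 4.8 and 41.3 TPM in GC_WT, so most of the sum came from other members. On log2(TPM + 1) the median of all genes was -0.11. Of 14 tested macrophage markers 10 were below 0 (51.5% of all genes), with a median of -0.16. Lyz2, the lysozyme of myeloid cells, was the 1 called lower (-0.37 ± 0.10, adjusted p = 0.039). Their sum was 321 to 427 TPM and 242 to 361 TPM. Of 14 B cell markers none was called by edgeR (2 at an unadjusted p under 0.05), with sums of 351 to 653 TPM and 278 to 491 TPM. No defining marker of these 3 lists was at 0. The part of the cell type makeup in the class II values was not tested. The dendritic cell count fell to 0 without GC_KO mouse 9 or GC_WT mouse 5 or 10, and the macrophage count fell to 0 in 6 of the settings that left out a mouse.

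Of the thymic epithelium no gene was called. In cortical epithelium (16 tested) the median was -0.05, with Ctsl, a cathepsin, showing the smallest p (-0.18 ± 0.08, adjusted p = 0.23). In medullary epithelium (16 tested) the median was -0.15, with Krt5 at -0.39 ± 0.16 (adjusted p = 0.18). An unadjusted p under 0.05 was found for 5 of its members and 1 in the cortex, beside 3073 of 16307 genes in all. Of 9 tested neutrophil markers Cxcr2 was called higher (2.39 ± 0.62, adjusted p = 0.028). It stood on 9 counts over 6 GC_WT libraries and 45 over 6 GC_KO libraries, and no TPM value exceeded 0.41. Markers of parathyroid tissue, a neighbour of the thymus, varied between libraries of both groups, with summed levels of 32.9 to 99.8 TPM in GC_WT and 2.35 to 120 TPM in GC_KO, and none of 3 tested was called by edgeR or at an unadjusted p under 0.05. Fibroblast, endothelial, smooth muscle, fat, skeletal muscle, erythroid, platelet, plasma cell, tuft cell and lymph node lists held no called gene. The erythroid marker Rhag and the lymph node marker Chst4 were at 0 in all 12 libraries.

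**Figure D4:**
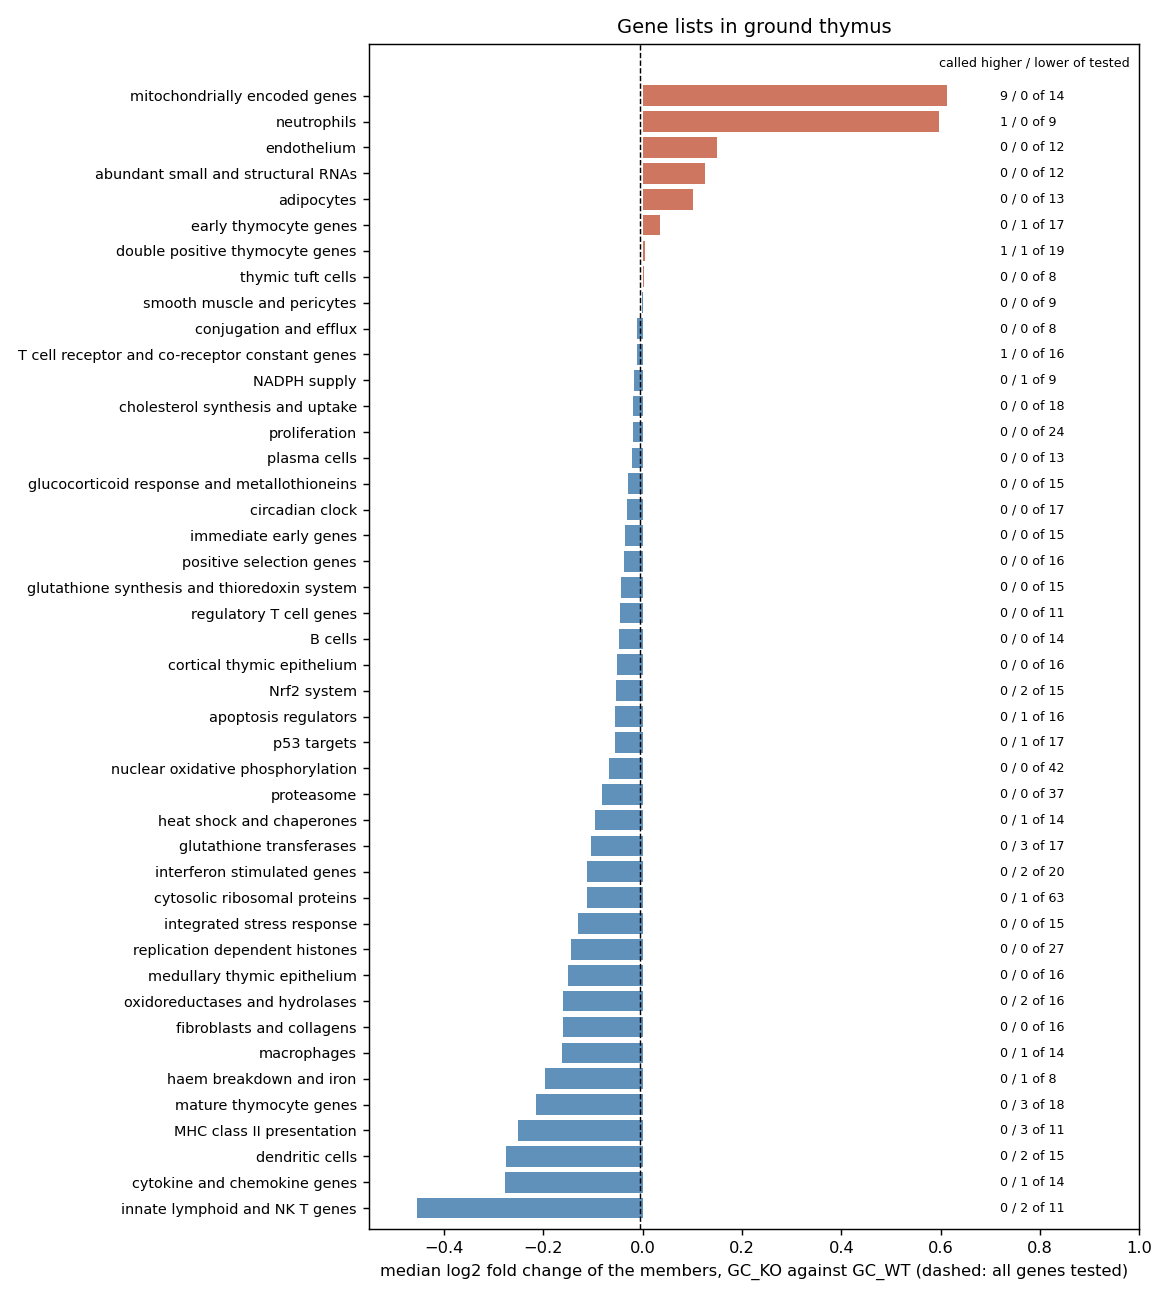
Median log2 fold change, GC_KO against GC_WT, for lists with at least 8 tested members. Bars give the median of a list (red above 0, blue below), the dashed line the median of all genes tested (-0.01), and the numbers on the right how many members were called higher and lower of those tested. Mitochondrially encoded genes stand at 0.61 with 9 of 14 called, and innate lymphoid and NK T genes at -0.45 with 2 of 11 called.

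Stress and growth pathways were largely without calls. Proliferation genes (24 tested), replication dependent histones (27), glucocorticoid response genes and metallothioneins (15), immediate early genes (15), the integrated stress response (15), the circadian clock (17), cholesterol synthesis (18) and the proteasome (37) had no called member by edgeR. Their members with an unadjusted p under 0.05 numbered 1, 1, 0, 3, 1, 1, 1 and 4, beside 3073 of 16307 genes in all. The lowest p of each belonged to E2f1, Hist1h2ac, Mt1, Fos, Slc7a11, Bhlhe40, Dhcr7 and Psma6, with log2 fold changes of 0.32, -0.30, -0.24, -0.71, 0.27, -0.23, 0.17 and -0.19. Among p53 targets Ccng1, a cyclin, was lower (-0.18 ± 0.05, adjusted p = 0.030). Among apoptosis regulators Casp9, the caspase of the mitochondrial pathway, was lower (-0.39 ± 0.11, adjusted p = 0.039), and among chaperones Hspa5, the main chaperone of the endoplasmic reticulum, was lower (-0.25 ± 0.07, adjusted p = 0.043). The last 3 calls were each lost in 10 or 11 alternative settings. All 20 interferon stimulated genes were below 0, with a median of -0.11, and Bst2 and Ifi27l2a (-0.49 ± 0.12, adjusted p = 0.025) were called. None was called when GC_KO mouse 4 or 9 or GC_WT mouse 5 was left out. Signs below 0 also prevailed in lists without a call, with 26 of 27 histone genes and 35 of 37 proteasome genes. Proliferation genes had 15 of 24 below 0, and all genes 51.5%.

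The same genotype contrast was available in flown mice, which are other animals (6 FL_WT and 5 FL_KO). There, 213 genes were higher (1.31%) and 218 lower (1.34%) in FL_KO, 2.64% of the 16307 in all. With FL04, the FL_KO mouse that the study left out, the numbers were 107 and 90. Of the 621 genes called on the ground, 575 (92.6%) had the same sign in flight and 127 (20.5%) were also called in the same direction, which is 29.5% of the 431 genes called in flight. None of the 621 was called in opposite directions. Among genes that were not called on the ground, 63.2% had the same sign in flight. Of 69 ground genes with a log2 fold change of at least 1 in size, 67 had the same sign and 41 were called. The test of the difference between the contrasts called 0 genes by edgeR (0%, with 1342 at an unadjusted p under 0.05), 9 by DESeq2 (0.0639%) and 0 by limma on log2(TPM + 1).

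Ground and flight values are set side by side here for some genes and lists, and the lists were not tested as groups. Capza1 gave -1.12 on the ground and -1.08 in flight, Cdc42bpg -1.32 and -1.16, and Gsta3 -1.54 and -1.06 (called in both). Mitochondrially encoded genes were called higher for 7 of 14 in flight, with a median of 0.45. MHC class II genes had a median of 0.09 in flight and none of 11 called, against -0.25 on the ground. H2-Aa was -0.30 on the ground and 0.11 in flight, with an unadjusted p of 0.0014 for the difference. Bst2 was -0.30 and 0.21 (unadjusted p = 8.1e-05 for the difference), and Ccl5 was -0.79 and -0.01 (unadjusted p = 0.0015). These genes were named by their ground calls, and the same ground values enter the difference. The unadjusted p are therefore a description and not a test. Among the 621 genes called on the ground 132 had an unadjusted p under 0.05 for the difference in edgeR. After adjustment over all genes none of the 621 was under 0.27. The interferon stimulated genes had a median of 0.39 in flight with 6 called higher, against 2 called lower on the ground.

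**Figure D5:**
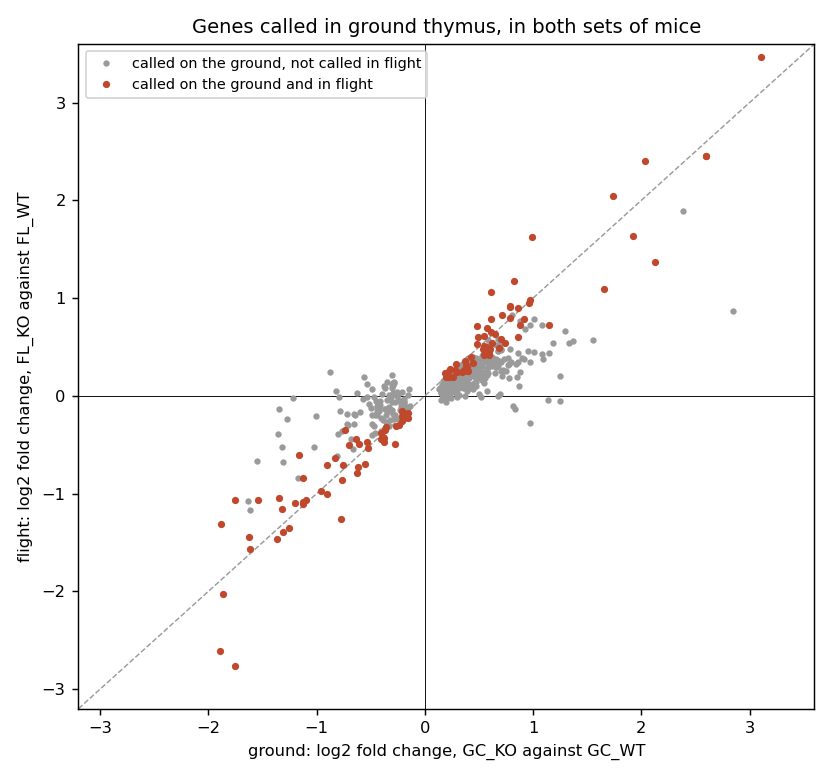
Log2 fold change of Nrf2-KO against WT thymus in ground mice (x axis) and flown mice (y axis) for genes called on the ground, with 13 of the 621 outside the plotted range. Red points were also called in flight and the dashed line marks equal values. Genes of large difference lie along the line and share the sign, while many small ground differences lie near 0 in flight. The genes were chosen by their ground values, not by their flight values.

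Set beside the other tissues of the same ground mice, the thymus had 621 called genes in the fit of all thymus groups and 335 with its ground libraries alone. The 8 other tissues had 36 (temporal bone) to 419 (white adipose tissue). Target genes were called lower for 7 of 73 in thymus. In liver 25 of 81 were lower (1.7% of all genes), in kidney 22 of 78 (1.04%) and in white adipose tissue 20 of 78 (1.41%). In brown adipose tissue 9 of 73 were lower (1.13%), in spleen 5 of 74 (0.538%), in mandibular bone 4 of 81 (0.189%), in cerebrum 3 of 70 (0.409%) and in temporal bone 2 of 80 (0.121%). Whether the shares differ between tissues was not tested. Kidney and mandibular bone had 3 mice per group. The targets' medians were -0.28 in kidney and -0.27 in liver. Nqo1, not called in thymus at -0.14, gave -2.05 in liver and -1.79 in kidney. Gstm1 was called lower in 7 of the 8 tissues, at -0.86 to -2.39, and Gsta3 in 5 of them.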

How the data were processed

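Thymus RNA of 6 GC_WT and 6 GC_KO mice was depleted of ribosomal RNA and sequenced as single reads. The authors mapped reads to mm10 with STAR 2.6.1 and estimated expression with RSEM 1.3.1 (GENCODE vM20 gene models). Expected counts stand in the deposited table as RSEM wrote them, not normalized, with reads that fit several genes divided among them. The TPM values were deposited as RSEM gave them, so their later scaling in Subio is not included. A further 192 FPKM columns were not used. The table lists 54752 genes, and 93 symbols occur more than once. Positions came from GENCODE vM21 (GRCm38), which held 99.9% of the identifiers. The strand setting of the counting is not given in the sources used here.

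Expected counts were rounded and fitted in R 4.3.3 with edgeR 4.0.16 (filterByExpr, TMM factors, quasi-likelihood test, Benjamini-Hochberg adjustment over all genes tested, calls at an adjusted p under 0.05). The 4 thymus groups shared 1 fit without FL04, a mouse the study left out. The SE was the log2 fold change divided by the root of the test statistic. Genes were named by rule: Nfe2l2, Keap1, Nqo1 and Hmox1, up to 4 called members of each list (or the member of smallest p), the 10 largest changes in each direction at a mean of at least 5 TPM without overlap, the 5 smallest p in each direction, and called genes within 5 Mb of Nfe2l2. Further members are quoted with their values for comparison, chosen after these had been seen. The members and lists were chosen with earlier results of these data known. The fits were tested on simulated data. Results were also computed with DESeq2 1.42.0, with limma 3.58.1 from log2-transformed TPM (pseudocount 1 or 0.1, genes with a mean of at least 5 TPM in 1 or more groups), and with RLE factors, protein-coding genes alone, no filter on low counts, FL04 included, the 12 ground libraries alone, and each ground mouse left out. The labels name separate mice.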

Additional observations from a re-analysis of the deposited data

Results flagged for a closer look

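Single mice stood apart from the other 5 of their group in 19 of 188 groups of values examined (10.1%), by the gap to the nearest mouse relative to the range. Chance gives about 1 in 20 for independent values of normal spread. These values came from the same libraries, many of them for genes named by their results, so the shares are not directly comparable. GC_KO mouse 4 was low for Nqo1 (6.37 TPM, others 11.01 to 13.5), Hmox1 (2.85 TPM, others 4.5 to 5.44), Hbb-bt (1.35 TPM, others 3.79 to 4.11) and Hspa5 (52.6 TPM, others 69.0 to 77.8). It was also the extreme library on the first principal component (36.5, others 6.11 to 14.9). GC_WT mouse 8 was high for Gsta3 (5.07 TPM, others 2.43 to 3.36), Gstm1 (18.4 TPM, others 7.5 to 9.57), Gzmb (3.45 TPM, others 1.03 to 1.75), Krt5 (46.0 TPM, others 19.45 to 29.3) and Fos (4.28 TPM, others 1.93 to 2.30). GC_WT mouse 5 was high for Ftl1 (752 TPM, others 464 to 568) and low for Plxnd1 (43.7 TPM, others 55.3 to 61.5), and its library was the deepest (10.6 M expected counts, others 9.43 to 9.83 M).

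GC_WT mouse 10 was low for Gm3608 (1.09 TPM, others 1.79 to 2.20) and Srp54c (22.5 TPM, others 26.4 to 28.0). GC_KO mouse 12 was high for Ccl5 (12.3 TPM, others 7.45 to 9.17) and Ms4a1 (1.25 TPM, others 0.67 to 0.81). GC_KO mouse 11 was high for Gzmb (1.18 TPM, others 0.46 to 0.67), and GC_KO mouse 1 was low for Abcc5 (56.5 TPM, others 65.2 to 68.1).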

How the results depend on the processing

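The loss of Nfe2l2 kept its direction and its call in all 20 alternatives, at -1.30 to -1.14 on the log2 scale. The count of 621 called genes moved most. With limma on log2(TPM + 1) it was 132 (40 higher, 92 lower), with log2(TPM + 0.1) 136 (41 higher, 95 lower), and with the 12 ground libraries alone 335 (219 higher, 116 lower). Higher genes numbered 285 with protein-coding genes alone and 279 without the filter on low counts. DESeq2 called 746 and RLE factors gave 561. Leaving out 1 mouse gave 278 to 713 called genes, 176 to 506 higher and 85 to 256 lower. Without GC_KO mouse 4 the number was 303, without GC_WT mouse 5 it was 278 and without GC_WT mouse 8 it was 316. Without GC_KO mouse 9, 121 genes were lower. Of the 621 genes, 296, 272 and 304 were called in the same direction without GC_KO mouse 4, GC_WT mouse 5 and GC_WT mouse 8. The causes were not tested. The difference between the ground and flight contrasts called 9 genes by DESeq2 and 0 by edgeR. The share of ground calls with the same sign in flight was 91.6 to 93.9% in the alternatives, and with FL04 included 90 genes were called in both, of 197 called in flight. For the 93 named models, 1801 further values were computed, of which 1591 kept direction and call, 190 lost the call, 16 gained it and 4 changed sign. The 4 were Hmox1 without GC_KO mouse 4 (0.038) or GC_WT mouse 10 (0.0022) and Casr without GC_KO mouse 2 (-0.064) or 9 (-0.054), within ranges of -0.091 to 0.038 and -0.064 to 0.34 over the mice left out. No paired analysis was possible because GC_WT and GC_KO mice share no numbers. At this depth, genes of few counts such as Cxcr2 allow no firm statement.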
